A study of Mus musculus with 2 samples.

Results

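The 9 genes described here make, break down, bind or answer to retinoic acid: Aldh1a1, Aldh1a2, Aldh1a3, Cyp26a1, Cyp26b1, Cyp26c1, Crabp1, Crabp2 and Rarb. They were taken by symbol from the 32285 genes of the deposited matrices, whatever their level, and all 9 were found. Retinoic acid is made from vitamin A: retinol is oxidised to retinaldehyde, and the ALDH1A enzymes oxidise retinaldehyde to retinoic acid. The acid enters the nucleus with the help of CRABP proteins, binds receptors such as RARB that sit on DNA with RXR partners, and is cleared by CYP26 enzymes. In the developing eye the synthesising enzymes are laid out in separate dorsal and ventral retinal domains with a Cyp26 zone between them, and the acid made in the retina is known to act on the mesenchyme around the eye.

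The data are 2 single-cell RNA-seq libraries of eye cups from E17.5 mouse embryos, each pooled from 3 eye cups per the labels. One library is Myrf humWT/humWT, in which the last Myrf exon was exchanged for the human one on both alleles, and the other is Myrf humdG/humdG, in which the same human exon also carries the C-terminal frameshift variant dG. The humWT line was made by CRISPR editing of C57BL/6J eggs, and the humdG line by a further edit that began from heterozygous humWT mice. The controls thus carry the human exon too, and humdG homozygotes die before birth. The question of the comparison was what the dG allele does to the cells of the eye. MYRF is a membrane-bound transcription factor that the pigment epithelium uses. The label text on tissue preparation speaks of floxed Myrf mice with an Rx-driven Cre. The sample titles and genotype fields give humWT and humdG, and these were used. The labels say that cornea, lens and optic nerve were taken off, yet surface epithelium-like cells were still present. In the study's methods the cornea stayed on the cup, and the pool is counted in mice, with both eyes of each, rather than in eye cups.

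Each genotype is 1 library, so no test between genotypes is possible, and the intervals below cover counting error only. A level is the sum of a gene's unique molecular identifiers (UMIs, 1 per captured transcript) over the cells of a class, per 1000000 UMIs of that class (CPM). A ratio is the humdG CPM over the humWT CPM, given on the log2 scale with its 95% counting interval, and it was read only where both libraries together held at least 20 UMIs. These 3' counts are not per length, so levels are compared between cells and not between genes. The kept cells numbered 16166 in humWT and 18173 in humdG, with medians of 3785 and 2625 UMIs. Of the cell barcodes, 86 occurred among the kept cells of both libraries.

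Cells were clustered without the listed genes of this pathway among the variable genes, and classes were named from fixed markers. The retinal pigment epithelium-like (RPE-like) class held 488 humWT and 356 humdG cells, the retinal progenitor-like class 1779 and 3017, and the mesenchyme-like class 2916 and 1697. All 10 RPE markers, from which the class was named, were detected in the RPE-like cells. They summed to 18833 CPM in humWT and 18351 CPM in humdG against 394 and 179 CPM in red blood cell-like cells. In melanocyte-like cells they summed higher, to 27014 and 28304 CPM, so they do not tell these 2 pigmented classes apart. Melanocyte markers summed to 826 and 902 CPM in RPE-like and 2212 and 2653 CPM in melanocyte-like cells. Unnamed clusters took 27.7% of the humWT and 47.5% of the humdG cells. The rankings and counts of classes below leave them out. Red blood cells are not known to make these transcripts, so the red blood cell-like class (469 and 240 cells) was used as a measure of free RNA in each library. Free mesenchymal RNA differed between the libraries: the 17 mesenchyme markers summed to 3147 CPM in humWT and 967 CPM in humdG red blood cell-like cells. The 10 retinal progenitor markers went the other way, at 436 and 878 CPM. These shifts stand beside every low level below. Red blood cell-like cells, at medians of 4175 and 4230.5 UMIs, were shallower than progenitor-like cells (8359 and 8606) and mesenchyme-like cells (13627.5 and 13526). The RPE markers summed to 242 and 116 CPM in progenitor-like and 178 and 93.9 CPM in mesenchyme-like cells. Progenitor markers, at 635 and 884 CPM in mesenchyme-like cells, were above the red blood cell-like level. That level is thus a rough measure, and subtracting it may take off too much in deeper classes.

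The retinoic acid receptors bind direct repeats of a 6-base core motif. The cores searched were AGGTCA with its variants AGTTCA as well as GGGTCA and also GGTTCA, on both strands, as direct repeats with 1, 2 or 5 bases between them, in the 250 bases before to 50 after each RefSeq start site (GRCm38.p6). Windows were in hand for 7 of the 9 genes. Of all 32851 windows, 32 (0.0974%) held a repeat with 5 bases between the cores, and among them were those of Rarb and Cyp26a1, the receptor and the enzyme known to be switched on by the acid itself. These are shown with their flanks because both genes are used as readouts of retinoic acid, with the cores in capitals:

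Rarb, chr14:16575508-16575534, minus strand, the strand of the gene: ggaagGGTTCAccgaaAGTTCActcgc

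Cyp26a1, chr19:37697771-37697797, minus strand, opposite to the gene: aaattAGTTCAcccaaAGTTCAtcttt

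The Rarb repeat lies from 53 to 37 bases before a start site inside the span of the gene, and the Cyp26a1 repeat from 32 to 16 bases before its start site. Repeats with 1 base between the cores were in 73 windows (0.222%) and with 2 bases in 88 windows (0.268%). No window of the 7 genes that could be searched held one. A match says that these letters are present, not that a receptor bound there in these cells.

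The synthesising enzymes were spread over different tissues. Aldh1a1 (chr19:20492715-20643465, plus strand, GRCm38), the enzyme of the dorsal retina, was at 6.25 CPM in humWT and 24.9 CPM in humdG progenitor-like cells, at 22.1 and 18.1 CPM in mesenchyme-like cells and at 22.5 and 21.0 CPM in surface epithelium-like cells. Its highest named classes in humWT, surface epithelium and mesenchyme, had overlapping counting intervals, as did its highest in humdG, progenitors and surface epithelium. Unnamed cells had Aldh1a1 at 9.26 and 26.7 CPM and held 11.3% and 32.0% of its UMIs. In RPE-like cells it was at 3.13 and 7.57 CPM, against 0.92 and 7.41 CPM in red blood cell-like cells, so its humdG level there was at the background.

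Aldh1a2 (chr9:71215789-71296243, plus strand), the enzyme best known from mesenchyme, was highest in mesenchyme-like cells in these data. Mesenchyme-like cells gave 96.4 CPM in humWT and 91.7 CPM in humdG, and they held 84.8% and 87.3% of all Aldh1a2 UMIs in kept cells. Of their 3908 and 2020 UMIs, 3336 and 1644 were in 1 cluster, led by Spp1, Mgp and Rgs5. That cluster also raised 7 of 8 markers of pericytes and smooth muscle. No other named class passed the counting interval of red blood cell-like cells (7.85 and 3.71 CPM) in either library. Unnamed cells had Aldh1a2 at 15.5 and 6.61 CPM. Its ratio was below 1 in all 11 classes with at least 20 UMIs, and the free mesenchymal RNA given above was lower in humdG as well.

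Aldh1a3 (chr7:66390890-66427517, minus strand), the enzyme of the ventral retina, was highest in progenitor-like cells, at 102 CPM in humWT and 98.2 CPM in humdG. Among named classes the neural crest and glia-like cells followed at 49.1 and 61.6 CPM, above mesenchyme-like cells at 25.8 and 26.3 CPM. Unnamed cells had Aldh1a3 at 43.3 and 62.9 CPM. In RPE-like cells it was at 17.6 and 16.0 CPM, against 9.24 and 23.2 CPM in red blood cell-like cells. The level in RPE-like cells thus lay above the background in one library and below it in the other.

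**Figure D1:**
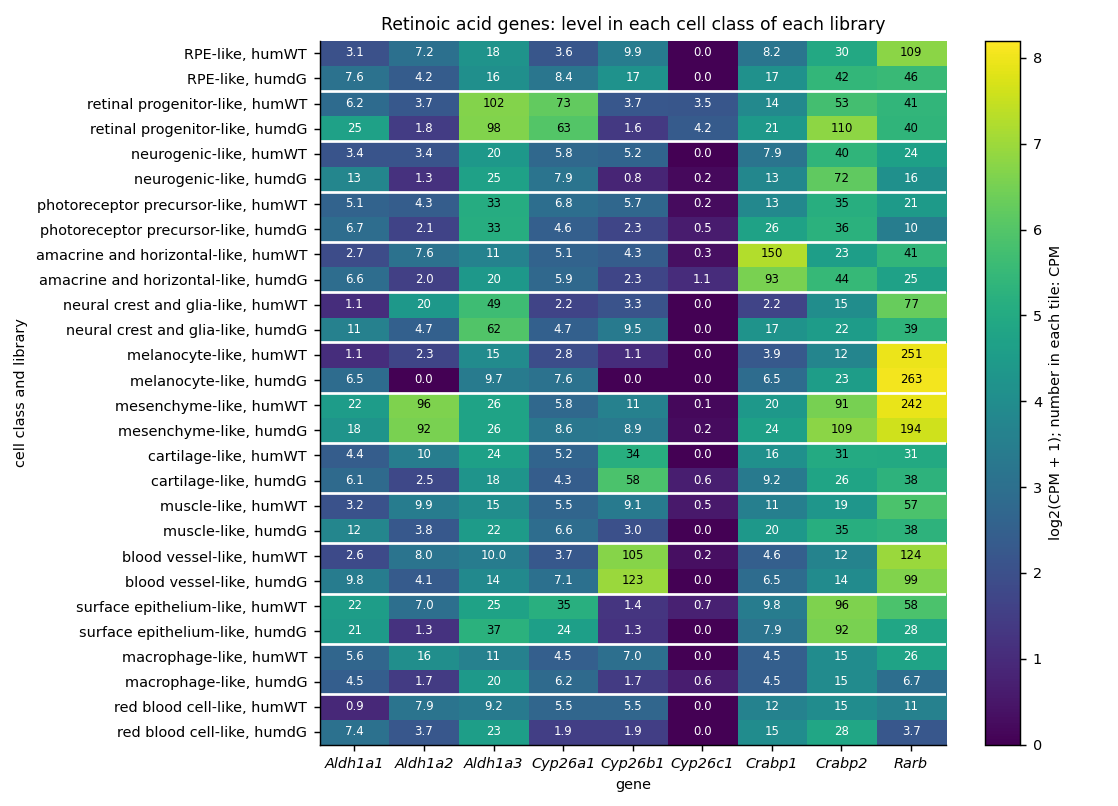
Level of each gene (columns, colour as log2(CPM + 1), number in each tile as CPM) in each cell class of each library (rows). Aldh1a2 is bright in mesenchyme-like cells (96.4 and 91.7 CPM), Aldh1a3 and Cyp26a1 in retinal progenitor-like cells, Cyp26b1 in blood vessel-like cells and Crabp1 in amacrine and horizontal-like cells, in both libraries.

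The clearing enzymes were in different tissues, Cyp26a1 and Cyp26c1 in retinal progenitor-like cells and Cyp26b1 in vessels and cartilage. Cyp26a1 (chr19:37697798-37701536, plus strand) was at 73.3 CPM in humWT and 63.3 CPM in humdG progenitor-like cells, which held 61.9% and 65.2% of its UMIs, and next came surface epithelium-like cells at 35.1 and 23.6 CPM. Cyp26b1 (chr6:84571414-84593908, minus strand) was at 105 and 123 CPM in blood vessel-like cells and at 34 and 58.4 CPM in cartilage-like cells. Both exceeded red blood cell-like cells, at 5.54 and 1.85 CPM. The blood vessel signal was uneven, since the 10 cells of most Cyp26b1 UMIs held 38.6% of them in humWT and 55.9% in humdG. Cyp26c1 (chr19:37685581-37693398, plus strand) lies next to Cyp26a1 and was sparse, with 80 and 153 UMIs in all kept cells, of which 68.8% and 71.9% were in progenitor-like cells. In RPE-like cells no Cyp26c1 UMI was found in 488 humWT and 356 humdG cells, where 3 UMIs would stand for 0.72 and 1.26 CPM.

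Of the carriers, Crabp1 (chr9:54764748-54773110, plus strand) was highest in amacrine and horizontal-like cells, at 150 CPM in humWT and 93.2 CPM in humdG. Only 13.4% and 19.3% of these cells had a Crabp1 UMI, and 10 cells held 67.9% of the UMIs in humWT and 38.0% in humdG, so the level came from a minority of the class. This class also raised 5 of 12 retinal ganglion cell markers, which summed to 971 and 780 CPM in it. No class was named for ganglion cells, and which cell type of the class held the Crabp1 UMIs was not tested. Unnamed cells held 15.5% and 30.8% of all Crabp1 UMIs, against 23.9% and 20.1% in amacrine and horizontal-like cells. Crabp2 (chr3:87948666-87953376, plus strand), which hands the acid to its receptor, was at 96.2 and 91.9 CPM in surface epithelium-like cells, at 90.7 and 109 CPM in mesenchyme-like cells and at 53.3 and 110 CPM in progenitor-like cells. In humWT the counting intervals of the first 2 of these classes overlapped, and in humdG those of the progenitor and mesenchyme classes did.

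Rarb (chr14:16430839-16819156, minus strand), the receptor that retinoic acid itself raises, passed the counting interval of red blood cell-like cells in 13 classes of humWT and 11 of humdG. Melanocyte-like cells gave 251 CPM in humWT and 263 CPM in humdG, mesenchyme-like cells 242 and 194 CPM, blood vessel-like cells 124 and 98.5 CPM, and red blood cell-like cells 11.1 and 3.71 CPM. The melanocyte-like class also carried pigment epithelium markers among its leading genes, so it was not compared between the libraries. Rarb UMIs were in 58.6% of humWT and 51.0% of humdG mesenchyme-like cells, at median depths that differ between clusters.

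In RPE-like cells, the tissue in which MYRF acts, Rarb was the gene with the most UMIs behind its difference. It was at 109 CPM in humWT (452 UMIs, interval 99.0 to 119) and at 46.2 CPM in humdG (110 UMIs, interval 38.0 to 55.7), a log2 ratio of -1.23 (-1.55 to -0.93), and the intervals of the libraries did not overlap. Rarb was detected in 32.4% of the humWT and 14.3% of the humdG cells of this class, whose median depths were 4246 and 2848.5 UMIs. Thinning every cell to a depth of 1000 UMIs, which dropped 1 shallow humdG cell, gave 6.97% and 1.69%. In red blood cell-like cells, whose median depths were 4175 and 4230.5 UMIs, the shares were 5.12% and 1.67%, and 2.37% and 0.855% after thinning.

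Markers of mesenchyme moved with Rarb in these cells: the 17 mesenchyme markers, none of them at 0, summed to 3126 CPM in humWT and 1404 CPM in humdG RPE-like cells. The same markers came to 3147 and 967 CPM in the red blood cell-like class, with Rarb at 11.1 and 3.71 CPM. The part of mesenchymal RNA in the RPE-like difference was not tested. With the red blood cell-like level subtracted, the Rarb log2 ratio was -1.20, and among cells chosen by 4 of 8 pigment epithelium markers in place of clusters it was -0.78, short of 2-fold. In the larger of the 2 RPE-like clusters, led by Ttr, Ptgds and Slc16a8, Rarb was at 94.7 and 43.1 CPM, and in the smaller, led by Ankfn1, Otx2os1 and Pde1c, at 211 and 133 CPM. The ratio was thus below 1 in both. In the smaller cluster, with 15 humdG cells and 11 humdG Rarb UMIs, the log2 ratio was -0.67 (-1.71 to 0.23), so its interval included no difference. In humdG, 10 cells held 53.6% of the Rarb UMIs of the class, against 27.2% in humWT. Myrf, the edited gene, was at 293 CPM in humWT and 203 CPM in the humdG cells, with a log2 ratio of -0.53 (-0.68 to -0.37). These counts do not read the dG variant, so they do not check the genotype labels.

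In the same class 8 members reached the minimum of 20 UMIs, of which 3 were at least 2 times higher in humdG and 1, Rarb, at least 2 times lower. Among the 12540 genes read in this class, 2.46% were at least 2 times higher, 5.77% at least 2 times lower and 8.22% either. The higher ones were Aldh1a1 (13 UMIs in humWT and 18 in humdG, log2 1.27), Cyp26a1 (15 and 20 UMIs, log2 1.22) and Crabp1 (34 and 40 UMIs, log2 1.04). Their humdG levels of 7.57, 8.41 and 16.8 CPM compare with 7.41, 1.85 and 14.8 CPM in humdG red blood cell-like cells. Retinal progenitor markers, 10 of 10 detected, also summed higher in humdG RPE-like cells, to 1333 CPM against 878 CPM in humWT, and their part in these 3 ratios was not tested. Among cells chosen by 4 of 8 pigment epithelium markers the Aldh1a1 log2 ratio was -0.092. Cyp26b1 had a log2 ratio of 0.80 (0.14 to 1.47), Crabp2 0.48 (0.08 to 0.87), Aldh1a2 -0.78 (-1.98 to 0.29) and Aldh1a3 -0.14 (-0.74 to 0.45).

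**Figure D2:**
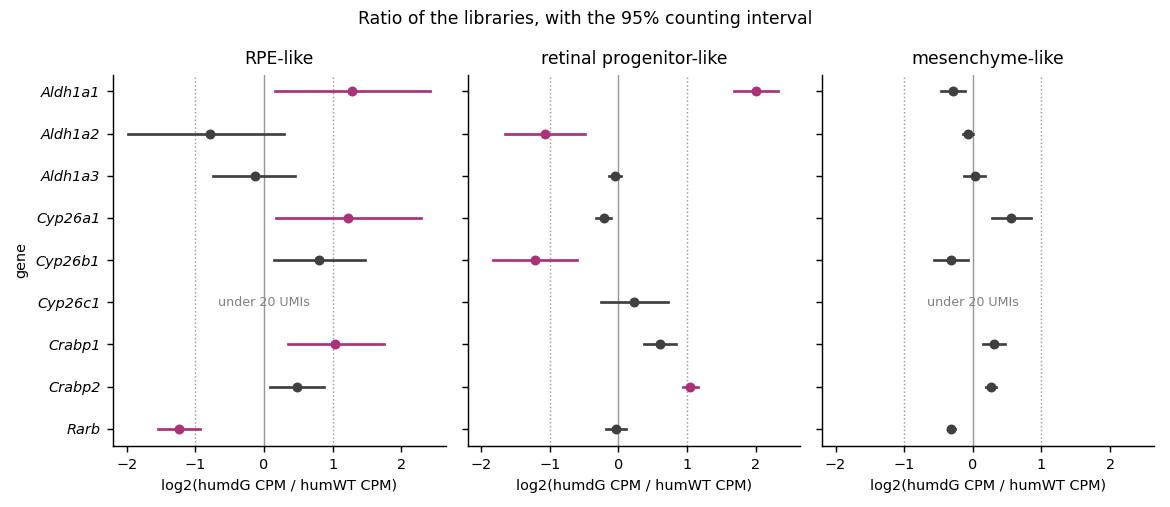
log2 of the humdG over the humWT level (x axis) for each gene (y axis) in 3 cell classes. Points are ratios, lines 95% counting intervals, dotted lines 2-fold, and purple marks ratios past 2-fold. Rarb in RPE-like cells (-1.23) and Aldh1a1 (2.00) and Crabp2 (1.05) in progenitor-like cells have short intervals, and in mesenchyme-like cells no gene passes 2-fold.

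In retinal progenitor-like cells the gene that differed most was Aldh1a1. It was at 6.25 CPM in humWT (97 UMIs) and 24.9 CPM in humdG (660 UMIs), a log2 ratio of 2.00 (1.69 to 2.32). A UMI was found in 4.33% and 14.0% of the cells, and in 0.338% and 2.19% after thinning to 1000 UMIs, which left out 2 and 7 cells. Both progenitor-like clusters showed it: 6.88 and 23.1 CPM in the cluster led by Tafa1, Cntn6 and Cp, and 5.63 and 26.8 CPM in the one led by histone genes. Free RNA moved the same way, from 0.92 CPM (2 UMIs) in humWT to 7.41 CPM (8 UMIs) in humdG red blood cell-like cells, and with it subtracted the log2 ratio was 1.72.

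Crabp2 was the other member at least 2 times higher in humdG progenitor-like cells, at 53.3 CPM (827 UMIs) against 110 CPM (2911 UMIs), a log2 ratio of 1.05 (0.94 to 1.16). The background was 14.8 and 27.8 CPM, and with it subtracted the log2 ratio was 1.10. Crabp2 UMIs were in 29.5% of humWT and 48.4% of humdG cells, and in 4.84% and 9.14% after thinning. At least 2 times lower were Aldh1a2 (58 and 47 UMIs, log2 -1.07) and Cyp26b1 (57 and 42 UMIs, log2 -1.21). Their levels, 3.74 and 1.78 CPM for Aldh1a2 and 3.67 and 1.59 CPM for Cyp26b1, were under those of red blood cell-like cells in both libraries and are read as background.

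The count in progenitor-like cells was therefore 2 of 9 members at least 2 times higher and 2 at least 2 times lower, where 1.94% and 5.66% of the 16056 genes read were, or 7.60% in either direction. None of the other members passed 2-fold. Aldh1a3 had a log2 ratio of -0.05 (-0.14 to 0.04), Rarb -0.04 (-0.18 to 0.11), Cyp26a1 -0.21 (-0.32 to -0.10), Cyp26c1 0.23 (-0.25 to 0.73) and Crabp1 0.60 (0.37 to 0.83). Crabp1 was near its background of 11.5 and 14.8 CPM, and with that subtracted its log2 ratio was 1.47, past 2-fold. In progenitor-like cells the Rarb interval excluded the 2-fold difference seen in RPE-like cells.

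Of the genes of dorsal retina, Tbx5 and Efnb2 were higher in humdG progenitor-like cells together with Aldh1a1, and the others were not past 2-fold. Tbx5, a transcription factor of the dorsal retina, had 6 UMIs in humWT and 96 in humdG progenitor-like cells, a log2 ratio of 3.23 (2.06 to 4.71), and Efnb2, a dorsal ephrin, went from 48.7 to 98.3 CPM, log2 1.01 (0.89 to 1.13). They were the 2 genes of the dorsal and ventral list past 2-fold, of 9 with at least 20 UMIs. Of all genes read in this class, 1.94% were at least 2 times higher. The dorsal gene Bmp4, a growth factor, went the other way with a log2 ratio of -0.95 (-1.45 to -0.46; 76 and 67 UMIs), and Tbx3, Tbx2 and Efnb1 had log2 ratios of 0.61, 0.19 and 0.12. Log2 ratios of the ventral genes were -0.14 (-0.29 to 0.00) for Vax2, -0.07 (-0.13 to 0.00) for Ephb2 and -0.57 (-0.80 to -0.35) for Ephb3. Cells with a Tbx5 UMI and no Vax2 UMI made up 5 of 1779 humWT progenitor-like cells (0.281%) and 78 of 3017 in humdG (2.59%), while cells with a Vax2 UMI and no Tbx5 UMI made up 23.6% and 22.4%. More dorsal cells in the library and more Aldh1a1 per cell cannot be told apart by these sums, and the same holds for Efnb2.

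The ratios were also computed over part of the cells, chosen after seeing the data except for the Vax2 cells. Without the cells that held a Tbx5 UMI, the Aldh1a1 log2 ratio was 1.86 (1.55 to 2.19) and that of Crabp2 1.04 (0.92 to 1.15). In cells with no UMI of Tbx5 or Efnb2 they were 1.34 (0.90 to 1.80) and 1.02 (0.87 to 1.17). In Vax2 cells alone, Aldh1a1 was at 5.94 CPM in humWT and 14.5 CPM in humdG, log2 1.29 (0.66 to 1.96), and Crabp2 at 52.8 and 123 CPM, log2 1.22 (1.02 to 1.44). The Aldh1a1 level of red blood cell-like cells, 0.92 and 7.41 CPM, stands beside its values in Vax2 cells too. Taken as free RNA, it would be a large part of the humdG value. A cell without a Tbx5 UMI may still be dorsal, since the gene was rarely captured, so these values do not separate the share of dorsal cells from the level per cell.

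The dorsal and ventral enzymes were on opposite sides in humdG, where enough Tbx5 cells were captured to read. Aldh1a1 was at 89.0 CPM in Tbx5 cells and at 14.5 CPM in Vax2 cells, a ratio of 6.14 (4.53 to 8.29). Aldh1a3 was at 24.2 and 167 CPM, a ratio of 0.14 (0.09 to 0.22). Efnb2, at 309 and 46.1 CPM, followed Aldh1a1. Cyp26a1, Crabp1, Crabp2 and Rarb had ratios of 1.10, 1.09, 1.18 and 1.11, and each interval held 1. In humWT, Vax2 cells had Aldh1a3 at 172 CPM, and the 5 Tbx5 cells held no Aldh1a3 UMI and 1 Aldh1a1 UMI, too few to compare. With dorsal cells taken more widely, by a Tbx5 or Tbx2 UMI, and ventral ones by a Vax2 or Ephb2 UMI, the humdG log2 ratios were 0.85 for Aldh1a1 and -1.32 for Aldh1a3, closer to 0 and in the same directions. Over 4 alternatives the humdG log2 ratio ran from 0.02 to 0.83 for Cyp26a1 and from -0.58 to 0.47 for Rarb. That of Crabp1 ran from -0.06 to 0.13 and that of Crabp2 from 0.03 to 0.36.

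Aldh1a3 was lower in the progenitor-like cells in which Cyp26a1 was found. Progenitor-like cells with a Cyp26a1 UMI (506 in humWT, 770 in humdG) had Aldh1a3 at 64.6 and 53.3 CPM, and those without (1273 and 2247 cells) at 120 and 116 CPM. The ratios were 0.54 (0.47 to 0.61) and 0.46 (0.41 to 0.51). Cyp26c1, its neighbour on the chromosome, had ratios of 4.42 (2.43 to 8.35) and 4.80 (3.20 to 7.31). Rarb was lower where Cyp26a1 was found, with ratios of 0.46 (0.37 to 0.56) and 0.42 (0.35 to 0.50), and so was Vax2, with 0.39 (0.31 to 0.48) and 0.34 (0.28 to 0.41). Aldh1a1 had ratios of 0.69 (0.42 to 1.10) and 0.63 (0.52 to 0.77). Each of these genes had ratios on the same side of 1 in both libraries. Cyp26b1, at background levels, also had both ratios below 1, at 0.42 (0.19 to 0.84) and 0.60 (0.24 to 1.31). Crabp1 had ratios of 1.57 (1.19 to 2.08) in humWT and 1.01 (0.83 to 1.22) in humdG, where the interval held 1. Crabp2 lay on opposite sides of 1, with 1.17 (1.01 to 1.35) and 0.91 (0.84 to 0.99). So did Aldh1a2, at background levels, with 0.46 (0.22 to 0.91) and 1.44 (0.74 to 2.69). Cells with a Cyp26a1 UMI were deeper, at medians of 9606 and 9240.5 UMIs against 7766 and 8330.

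**Figure D3:**
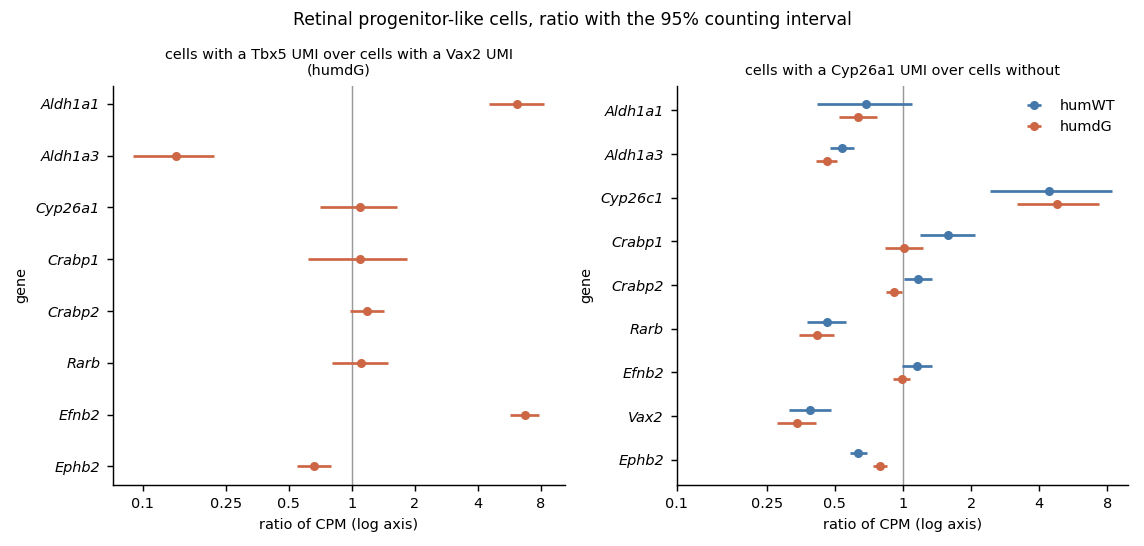
Ratios of CPM (x axis, log scale) within retinal progenitor-like cells for the genes on the y axis, with 95% counting intervals. Left, humdG cells with a Tbx5 UMI and no Vax2 UMI over those with the reverse, where Aldh1a1 is at 6.14 and Aldh1a3 at 0.14. Right, cells with a Cyp26a1 UMI over cells without, where Aldh1a3 and Rarb lie left of 1 and Cyp26c1 right of it in both libraries.

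Neither the Aldh1a1 nor the Rarb difference was seen in 1 class alone. The Aldh1a1 ratio was above 1 in 8 of the 11 classes with at least 20 UMIs. Its log2 ratio was 1.92 in neurogenic-like, 1.96 in muscle-like and 1.90 in blood vessel-like cells, about as large as in progenitor-like cells, on humdG levels of 12.7, 12.5 and 9.76 CPM, nearer to the red blood cell-like level of 7.41 CPM. In photoreceptor precursor-like and amacrine and horizontal-like cells the humdG levels, 6.69 and 6.63 CPM, were below it. The Rarb ratio was below 1 in 12 of 13 classes, red blood cell-like cells included, the exception being cartilage-like cells, where the median gene itself had a log2 ratio of 0.57. Besides RPE-like cells it was at least 2 times lower in 4 classes: macrophage-like (log2 -1.96), red blood cell-like (-1.58), photoreceptor precursor-like (-1.09) and surface epithelium-like (-1.06), in which 4.99%, 14.4%, 5.24% and 5.33% of the genes read were that much lower. Crabp1 in amacrine and horizontal-like cells had a log2 ratio of -0.69 (-0.85 to -0.52), with 10 cells holding most of the humWT UMIs as given above. Cyp26b1 in blood vessel-like cells had one of 0.24 (0.06 to 0.41).

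**Figure D4:**
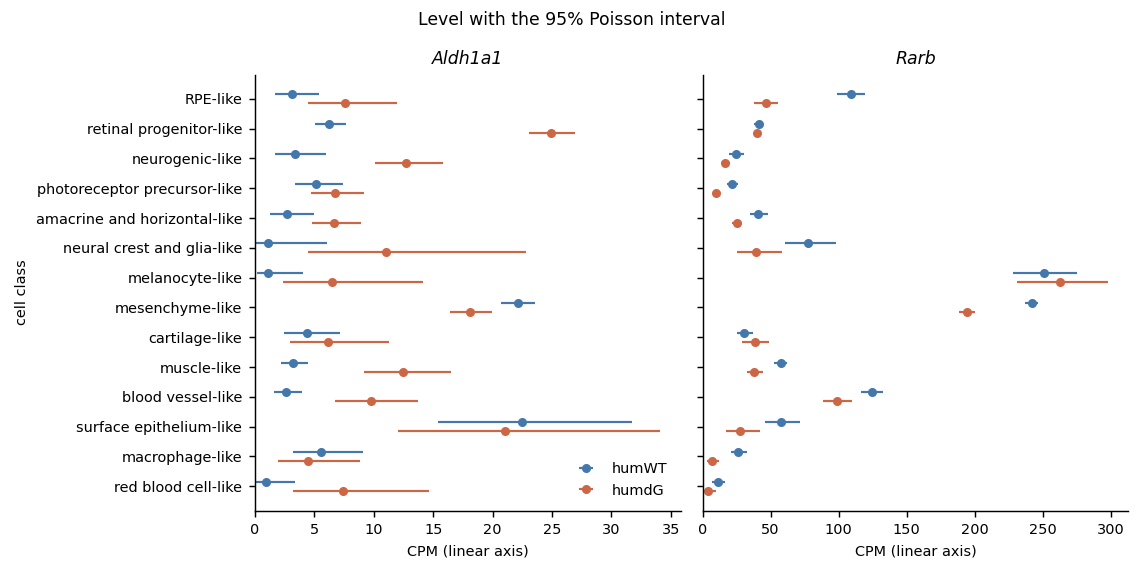
Aldh1a1 and Rarb CPM (x axes, linear) in each cell class (y axis) of humWT (blue) and humdG (orange), with 95% Poisson intervals. Among the named classes shown, Aldh1a1 in humdG is highest in progenitor-like cells (24.9 CPM, against 6.25 CPM in humWT). The Rarb intervals of RPE-like cells (109 and 46.2 CPM) are apart, as are those of several other classes.

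In mesenchyme-like cells none of the 8 members with at least 20 UMIs passed 2-fold, where 1.82% of the 17120 genes read were at least 2 times higher, 3.36% at least 2 times lower and 5.18% either. Rarb had a log2 ratio of -0.31 (-0.37 to -0.26), Aldh1a1 -0.29 (-0.46 to -0.11), Cyp26b1 -0.32 (-0.57 to -0.07), Aldh1a2 -0.07 (-0.15 to 0.01), Aldh1a3 0.03 (-0.12 to 0.17), Crabp2 0.27 (0.19 to 0.34), Crabp1 0.31 (0.15 to 0.47) and Cyp26a1 0.56 (0.28 to 0.84). All of these counting intervals excluded a 2-fold difference. With the red blood cell-like level subtracted, Aldh1a3 came to -2.39 and Cyp26a1 to 4.49, since both lie close to that level in 1 library. Mesenchyme-like cells were deeper, at medians of 13627.5 and 13526 UMIs against 4175 and 4230.5 in red blood cell-like cells. The subtraction may thus take off too much.

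The mesenchyme-like class was far from uniform in these genes. Its cluster led by Spp1, Mgp and Rgs5 (940 and 576 cells) had Aldh1a2 at 212 CPM in humWT and 154 CPM in humdG, Rarb at 481 and 320 CPM, Crabp2 at 137 and 146 CPM and Aldh1a1 at 46.8 and 31.9 CPM. The cluster led by Tnxb and Pi16 (1163 and 507 cells) had Aldh1a2 at 24.8 and 38.0 CPM, Rarb at 99.3 and 87.2 CPM and Aldh1a1 at 1.98 and 3.31 CPM, but Aldh1a3 at 45.0 and 47.2 CPM, against 7.30 and 11 CPM in the Spp1 cluster. The tendon-like cluster led by Tnmd (144 and 51 cells) had Cyp26b1 at 39.2 and 37.1 CPM, with Aldh1a2 at 3.11 CPM (12 UMIs) in humWT and no UMI in humdG. The cluster led by Acta2 and Col12a1 was shallow, at medians of 3420 and 2364 UMIs, and had Aldh1a3 at 34.1 and 25.3 CPM. Aldh1a2 and Rarb were thus high in the same cluster, and Aldh1a3 and Cyp26b1 each in another, in both libraries.

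Within the Spp1 cluster the libraries stood further apart than in the whole class for Rarb, Aldh1a1 and Aldh1a2. Rarb had a log2 ratio of -0.59 (-0.65 to -0.53), Aldh1a1 -0.55 (-0.74 to -0.37) and Aldh1a2 -0.46 (-0.54 to -0.37), all lower in humdG, while Crabp2 was at 0.10 (0.00 to 0.19). Other members were higher in humdG: Aldh1a3 at 0.59 (0.20 to 0.97), Crabp1 at 0.64 (0.37 to 0.91) and Cyp26b1 at 0.41 (0.02 to 0.80). In the Tnxb and Pi16 cluster Aldh1a2 was higher in humdG, at 0.62 (0.41 to 0.83). None of these ratios passed 2-fold, but others in single clusters did. Cyp26a1 was higher in humdG in the Tnxb and Pi16 cluster (28 and 38 UMIs, log2 1.497). Its levels there, 1.54 and 4.34 CPM, compare with 5.54 and 1.85 CPM in red blood cell-like cells. Crabp1 was higher in the Tnmd cluster (71 and 47 UMIs, log2 1.57), where Aldh1a1 was lower (100 and 8 UMIs, log2 -1.48). In humdG these UMIs came from 16 cells for Crabp1, with 83.0% in 10 of them, and from 7 cells for Aldh1a1. Cyp26b1 was lower in the Acta2 and Col12a1 cluster (32 and 8 UMIs, log2 -1.35). The counting intervals of these 2-fold ratios did not include 1. Shares of all genes past 2-fold are not given for single clusters, so these calls cannot be set beside them. Markers of pericytes and smooth muscle were also raised in the Spp1 cluster (7 of 8 markers, against 9 of 17 for mesenchyme).

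**Figure D5:**
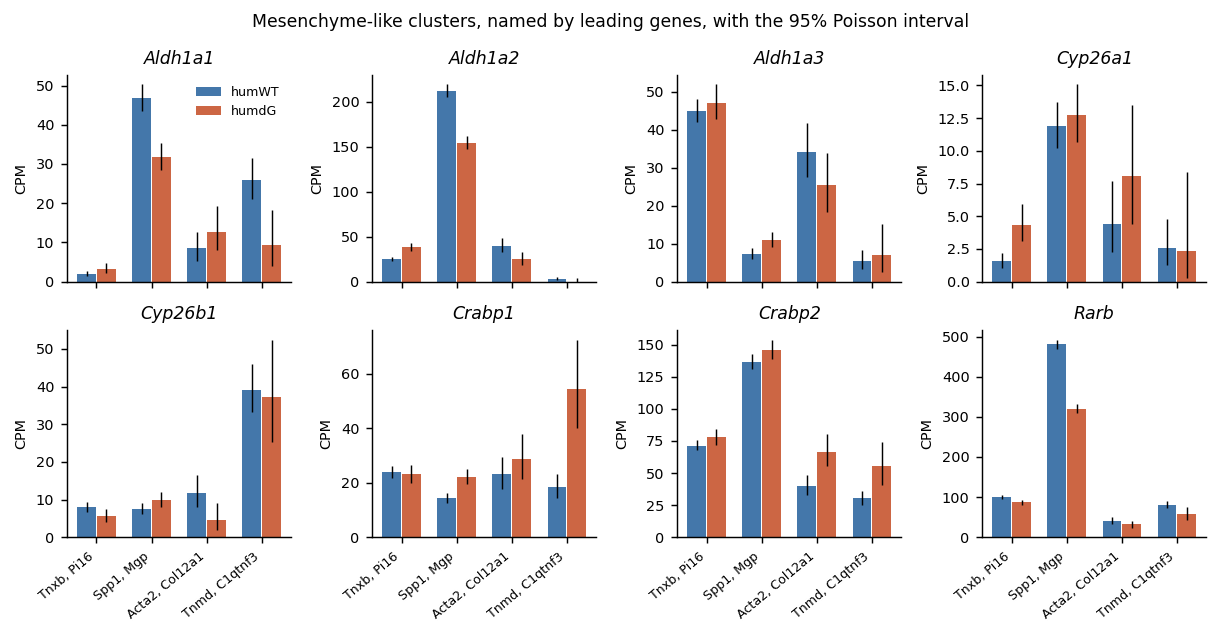
CPM (y axes, from 0) of 8 of the genes in the 4 mesenchyme-like clusters, named by leading genes (x axis), in humWT (blue) and humdG (orange), with 95% Poisson intervals. Aldh1a2 and Rarb peak in the Spp1, Mgp cluster (212 and 481 CPM in humWT), Aldh1a3 in the Tnxb, Pi16 cluster and Cyp26b1 in the Tnmd, C1qtnf3 cluster.

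Other genes of the pathway were read from fixed lists. Of the retinol uptake, binding and oxidation genes, 8 of 9 had at least 20 UMIs in RPE-like cells, and 1, the fatty acid binding protein Fabp5, was past 2-fold, at 64.5 CPM in humWT and 143 CPM in humdG, log2 1.15 (0.92 to 1.39). None passed in progenitor-like or mesenchyme-like cells. Fabp5 was higher there, at 312 and 332 CPM in progenitor-like and 286 and 306 CPM in mesenchyme-like cells. Retinal progenitor markers in RPE-like cells went from 878 to 1333 CPM and mesenchyme markers from 3126 to 1404 CPM. Their part in the Fabp5 ratio was not tested. The shares of all genes read past 2-fold were 8.22%, 7.60% and 5.18% in RPE-like, progenitor-like and mesenchyme-like cells. The list's median log2 ratio was 0.13 in RPE-like, -0.27 in progenitor-like and -0.21 in mesenchyme-like cells, where all genes read had medians of -0.07, -0.03 and -0.08.

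Of the 7 receptors and corepressors, Rarg, another retinoic acid receptor, was past 2-fold in 2 classes. It was at 14.4 and 5.46 CPM in RPE-like cells (60 and 13 UMIs), log2 -1.40 (-2.39 to -0.52), and at 8.24 and 1.93 CPM in progenitor-like cells (128 and 51 UMIs), log2 -2.10 (-2.59 to -1.62). Mesenchyme-like cells had more Rarg, at 58.8 and 50.9 CPM, log2 -0.21 (-0.31 to -0.11). Mesenchyme markers went from 3126 to 1404 CPM in RPE-like and from 1890 to 608 CPM in progenitor-like cells. Their part in the Rarg ratios was not tested. The medians of the list were -0.09, -0.20 and -0.21 in RPE-like, progenitor-like and mesenchyme-like cells, where all genes read had medians of -0.07, -0.03 and -0.08.

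The response list holds genes known to answer to the acid, in eye mesenchyme or in other tissues. In RPE-like cells, 5 of its 8 genes had at least 20 UMIs and 2 were at least 2 times lower, among them Dkk2, a secreted Wnt antagonist, at 45.0 and 20.6 CPM, log2 -1.13 (-1.61 to -0.67). In progenitor-like cells Dkk2, at 18.6 and 6.31 CPM (log2 -1.56, -1.84 to -1.28), and the transcription factor Foxc1, at 6.89 and 3.06 CPM (log2 -1.17), were at least 2 times lower. Of all genes read, 5.77% in RPE-like and 5.66% in progenitor-like cells were at least 2 times lower. In mesenchyme-like cells, where Foxc1 and Dkk2 are known to act, none of 6 was past 2-fold. The median log2 ratio of the list was -0.62 in RPE-like, -0.85 in progenitor-like and -0.06 in mesenchyme-like cells, and no gene of it had a ratio above 1 in the first 2. Mesenchyme markers were lower in humdG RPE-like cells, as given above, and in humdG progenitor-like cells, at 1890 and 608 CPM over 17 of 17 markers, and their part in these ratios was not tested.

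The genes whose levels most resembled each member were sought over 28 points, 14 classes in 2 libraries, among 18456 genes, by Pearson's r of log2(CPM + 10). Points of a library share its free RNA and depth, so r is a description. The closest gene to Aldh1a1 was another member, Crabp2 (r = 0.83), followed by Cpne5 and Ano1, and Cpne5 was also second for Crabp2, ahead of Gm20033. Aldh1a2 was nearest to Ccl11 (0.96), Osr1 and Mrgprf, genes of the mesenchyme-like class. Osr1 counted as raised in the Tnxb and Pi16 cluster but not in the Spp1 cluster, where Aldh1a2 was highest. Likeness across classes thus does not place these genes in the same cells. Aldh1a3 was nearest to Cp (0.85), Pmm1 and 1810010H24Rik, and Cyp26a1 to Kcne1 (0.86), Pawr and Ano1.

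Cyp26b1 was nearest to Erg (0.92), a transcription factor of endothelium, then Gm16070 and Gm4544. Cyp26c1 was nearest to Dipk1c (0.89), Itpka and Gm44929, and Crabp1 to Syn1 (0.91), a synaptic vesicle protein, Slc1a6 and Nmnat2. Rarb was nearest to Sptbn1 (0.86), Mtch1 and Btd.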

How the data were processed

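Single cells of 2 pooled eye cup libraries were analysed. The deposited matrices hold whole UMI counts per gene and cell from 10x 3' chemistry, made by the authors with Cell Ranger 7.1.0 on mm10, whose gene identifiers are those of GRCm38. Whether intron reads were counted is not given in the sources used here, and it would weigh most on long genes such as Rarb. The submitters' processing notes also name Seurat 4.1.1.

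A barcode was kept when it had over 500 genes and a mitochondrial share below 15%. Scrublet (scanpy 1.11.5) at its automatic threshold marked 1 and 0 cells, so the top 5% by score, 851 and 956 cells, were removed instead. The libraries, of 129135207 and 114319529 UMIs over 17421 and 19565 barcodes, were integrated in Seurat 5.3.0 (2000 variable genes less the 42 listed genes, 20 dimensions, resolution 0.5), giving 24 clusters. A class needed at least 3 markers raised 2-fold, and the name is rebuilt, not the authors'. Melanocyte-like cells had more pigment epithelium markers than their own among their 10 leading genes and were not compared.

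UMIs were summed per class and library. Levels carry exact Poisson intervals, shares Clopper-Pearson intervals and ratios exact conditional binomial intervals at 95%. With 1 library per genotype there is no biological replicate. The ratio intervals were tested on simulated Poisson counts only, which is the model they assume. That test does not cover UMIs concentrated in few cells. The genes and lists, and the core motifs, were chosen with earlier results of these data known. Named are the 9 genes, list genes past 2-fold with at least 50 UMIs, and the 3 genes most like each member. Tgm2, at 25 and 5 UMIs in RPE-like cells, fell under that minimum. The result of 1 listed response gene is not reported here. Positions are from GENCODE M21.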

Additional observations from a re-analysis of the deposited data

How the results depend on the processing

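No paired analysis was possible because each genotype is 1 library, and for the same reason no library could be left out in turn. The members past 2-fold in RPE-like cells numbered 4, but 7 in cells with at least 5000 UMIs and 2 among cells taken by 4 of 8 pigment epithelium markers in place of clusters. In progenitor-like cells they numbered 4, but 2 at a resolution of 1.0 and 2 with more than 200 genes per cell. In mesenchyme-like cells they numbered 0, but 2, Aldh1a3 (-2.39) and Cyp26a1 (4.49), with the red blood cell-like level subtracted. Shares of all genes past 2-fold are not given for these alternative settings, so the counts cannot be set beside them. The causes were not tested. In RPE-like cells the log2 ratio of Aldh1a1 became -3.85 and that of Crabp2 -0.12 with that level subtracted, and with the marker-based choice Aldh1a1 became -0.092 and Cyp26b1 -1.49. In mesenchyme-like cells Cyp26b1 became 0.35 with the level subtracted and 0.41 in the Spp1 cluster alone. Rarb in RPE-like cells ran from -1.52 to -0.78 over 12 alternatives, and in progenitor-like cells Aldh1a1 ran from 1.34 to 2.19 and Crabp2 from 1.02 to 1.10. The larger RPE-like cluster alone, the Spp1 cluster alone and the progenitor-like cells without Tbx5, or without Tbx5 and Efnb2, were chosen after seeing the data.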
